A study of Mus musculus with 6 samples.

Results

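Solute carriers are membrane proteins that move nutrients, metals, ions and metabolites across the plasma membrane and the membranes of organelles. The genes described here are the solute carriers with a mean level of 7 or more on the log2 scale in hepatic myeloid cells. They were chosen from the array annotation as rows with exactly 1 symbol of the form Slc, family number, letter and member number. Where a gene had several rows, the row with the highest mean stood for it. The rule left out Slc7a1, Slc7a2, Slc7a11, Slc2a1, Slc2a3, Slc16a3, Slc40a1, Slc11a1 and Slc11a2, of which 8 had such a row. Of 350 solute carrier genes measured, 342 stayed after this step, and 171 reached the level of 7, among 19938 genes in all.

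RNA came from liver CD11b+Gr-1+ cells, called myeloid-derived suppressor cells in the labels, of C57BL/6 mice with EL4 tumours, a transplanted lymphoma. In 3 samples the mice had received PBS (also labelled untreated), and in the other 3 concanavalin A (Con A), a plant protein that triggers hepatitis driven by T cells. Every mouse carried a tumour, and cells were collected 3 hours after the injection. The dose of Con A stands as 12.5 mg/kg in the design text and as 12.5 ug/kg in the treatment field, and it is not settled here. Age and sex are not given in the sources used here, and no group without a tumour was analysed here. Each group had 3 mice, but no label ties an array to 1 mouse, so the p-values reflect the spread of these samples alone, and that spread may be technical.

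Solute carriers of myeloid cells feed several tasks. Amino acid exchangers and lysosomal exporters supply protein synthesis and nutrient sensing, nucleoside carriers salvage bases and end the signal of extracellular adenosine, and zinc and copper carriers serve the withholding or loading of metals during infection. The glucose-6-phosphate carrier of the endoplasmic reticulum is needed for normal neutrophil numbers, since its inherited loss causes neutropenia.

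The 171 genes belonged to 43 of the 48 measured families. Levels are log2 values, and a difference is Con A minus PBS, tested by limma with p-values adjusted over all 19938 genes by Benjamini-Hochberg and called at 0.05. The level was the value that chose the genes, so it is given as a description only. Just inside the limit stood Slc35d1, Slc39a5 and Slc25a47 at 7.03, 7.06 and 7.07, and just outside it Slc9a7, Slc12a3 and Slc16a8 at 6.99, 6.99 and 6.97. The highest means were those of Slc31a2 (12.87), Slc3a2 (12.60), Slc25a5 (12.45), Slc38a2 (12.30), Slc2a6 (12.25), Slc25a3 (12.16), Slc25a11 (12.01), Slc27a4 (11.96), Slc6a6 (11.79) and Slc25a24 (11.73). Probe sets differ in brightness, so this is not an order of transcript amounts. For 7 genes the group means lay on both sides of 7. These were Slc30a4, Slc12a2, Slc16a7, Slc37a2, Slc25a27, Slc5a11 and Slc25a47, of which Slc30a4 and Slc25a47 reached the level through the Con A arrays and the other 5 through the PBS arrays, so a difference in that direction was built into their choice.

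After Con A, a few metal and nucleoside carriers rose, 4 of them by more than 4-fold, and a larger number of amino acid, mitochondrial and unsettled carriers fell. Of these 4, Slc30a4 reached the level of 7 only through its Con A arrays, so a rise was built into its choice. Among the 171 genes, 52 passed the test (30.4%), against 11.8% of all genes and 19.5% of the other genes with a mean of 7 or more. Of these carriers 11 rose (6.43%) and 41 fell (24.0%). Over all genes 4.59% rose and 7.22% fell, and over the other genes at this level 7.34% rose and 12.1% fell. Among the 171 carriers under the level 6 passed (3.51%), 3 of them higher and 3 lower (1.75% each). The median difference was -0.13, against 0.02 over all genes and -0.02 over the other genes at that level. At least a 2-fold difference was found for 4 genes that rose and 7 that fell. Of the 164 carriers with both group means at 7 or more, 10 rose and 38 fell. The 52 genes past the test had no overlap between the groups, and over all 171 carriers 85 had none (49.7%), against 29.9% of all genes and 40.9% of the others at this level.

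**Figure D1:**
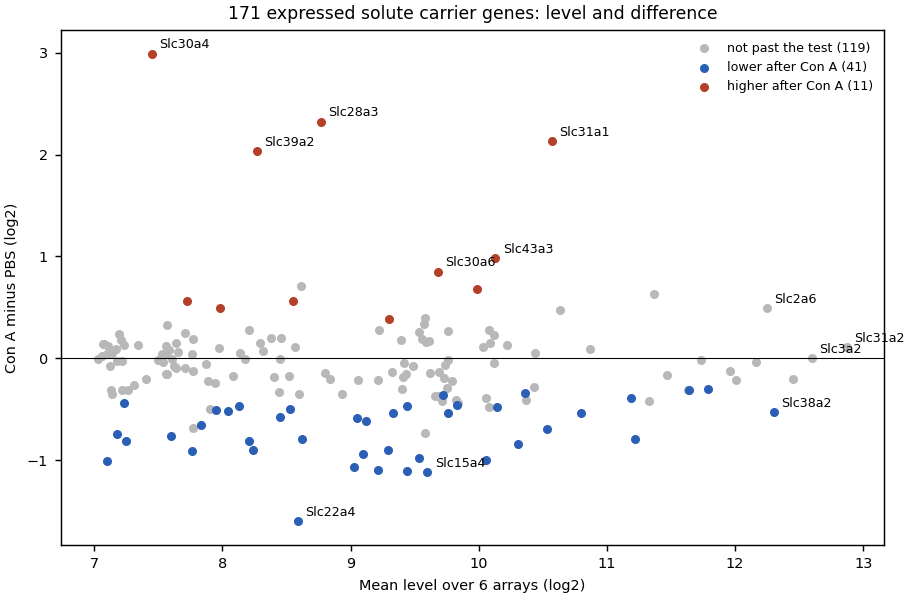
Mean level over 6 arrays (horizontal axis, log2) and difference Con A minus PBS (vertical axis, log2) of the 171 carriers, 1 point per gene. The 4 genes above a difference of 2 are Slc30a4 (whose choice favoured a rise), Slc28a3, Slc31a1 and Slc39a2, and 41 genes past the test lie below 0.

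The unmoderated test, which uses each gene's own spread alone, called 19 of the carriers. The count of 52 genes became 31 without PBS replicate 1, with 6 that rose and 25 that fell. Without Con A replicate 3 the number that rose was also 6, and without Con A replicate 2 the number that fell was 27. The labelled cell type was checked against its markers. Granulocytic markers had array means of 13.28 to 13.41 after PBS and 13.33 to 13.35 after Con A, with 0 of 9 past the test, and Itgam (CD11b) stood at 12.76 to 13.06 and 12.73 to 12.80. T cell markers had array means of 6.00 or below, with 0 of 4 past the test. Within this list Cd3e stood highest, at 7.12 to 7.36, and Trat1 lowest, at 4.03 to 4.30. Of 6 monocytic markers 3 fell and 0 rose, and their array means were 9.67 to 9.88 after PBS and 8.35 to 8.82 after Con A. Eosinophil markers moved the other way, with 3 of 4 higher and array means of 9.34 to 10.10 and 10.12 to 10.76. The calls of Epx, Prg2 and Siglecf (adjusted p = 0.0459, 0.0418 and 0.0379) were kept in 2, 2 and 1 of the 6 fits that left out an array, at up to 0.161, 0.146 and 0.14 without PBS replicate 1. In Con A replicate 2 the hepatocyte and Kupffer cell marker means were highest, at 7.64 and 9.04, against 6.79 to 6.91 and 6.77 to 7.58 in the other arrays, with 0 of 7 and 0 of 5 past the test. The platelet mean was also highest there, at 9.36, against 6.82 to 8.50, with 1 of 4 higher. B cell markers had 1 of 2 lower (6.42 to 6.75 after PBS, 6.11 to 6.36 after Con A), and endothelial markers 1 of 4 higher (6.77 to 6.80 and 7.06 to 7.33). The B cell call, Ms4a1 (limma adjusted p = 0.0282), was kept in 2 of the 6 fits that left out an array, at up to 0.106. The endothelial call was Pecam1, with a difference of 1.55, while Stab2, Clec4g and Kdr differed by 0.15, 0.12 and -0.02. The part of these shifts in the carrier differences was not tested, and in bulk RNA fewer cells of a type and less RNA per cell cannot be told apart.

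**Figure D2:**
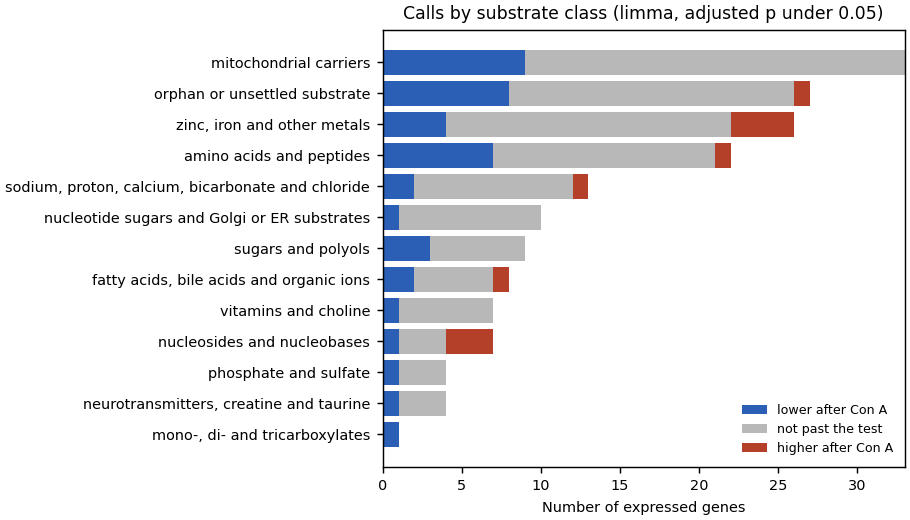
Number of expressed carriers (horizontal axis) in each substrate class, split into genes lower after Con A, genes not past the test and genes higher after Con A. Metals (4) and nucleosides (3) hold 7 of the 11 genes that rose, and mitochondrial carriers (9 lower) hold none.

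Metal carriers held 3 of the 4 rises above a log2 difference of 2, among them Slc30a4, whose choice favoured a rise. Of 26 expressed metal carriers, 4 rose and 4 fell, with a median difference of 0.08. Those that rose were the zinc carriers Slc30a4, Slc39a2 and Slc30a6 and the copper importer Slc31a1. Those that fell were the zinc carriers Slc39a13, Slc30a1 and Slc39a7 and Slc41a3 of a magnesium carrier family. Over the other genes with a mean of 7 or more, 7.34% rose and 12.1% fell, so the number of metal falls lay near the background. In zinc biology, Slc30 proteins move zinc out of the cytosol, into vesicles or out of the cell, and Slc39 proteins move it into the cytosol.

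Slc30a4 (probe set 10487021), a vesicular zinc carrier, had the largest difference among the 171 carriers kept by the rule. It reached the level of 7 only through the Con A arrays, so a rise was built into its choice. It stood at 5.50, 5.18 and 7.21 after PBS and at 8.32, 8.58 and 9.94 after Con A. The groups did not overlap, but replicate 3 was the highest array of each group. The difference was 2.99 (95% interval 1.60 to 4.37, 7.92-fold, limma adjusted p = 0.0181). The call was lost without PBS replicate 1, Con A replicate 2 or Con A replicate 3, at adjusted p = 0.0851, 0.0613 and 0.0537.

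Slc31a1 (probe set 10505276), which brings copper into the cell, stood at 9.35, 9.39 and 9.78 after PBS and at 11.61, 11.73 and 11.56 after Con A. The Con A arrays lay within 0.2 of each other and all of them above PBS. The rise was 4.38-fold, or 2.13 ± 0.12 (SE) on the log2 scale (limma adjusted p = 0.000469). Its neighbour Slc31a2, a related copper protein of intracellular membranes with 1 protein-coding gene between them on chromosome 4, stood at 12.82 ± 0.10 and 12.93 ± 0.05 (SD, n = 3). Its difference of 0.11 had an interval from -0.08 to 0.30 and did not pass.

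Slc39a2 (probe set 10414612), a zinc importer, stood at 7.21, 7.22 and 7.34 after PBS, close to the array medians of 7.05 to 7.08, and at 9.20, 9.18 and 9.47 after Con A. No array came near those of the other group. The rise was 4.07-fold (2.03, 95% interval 1.80 to 2.25, limma adjusted p = 0.000298). Slc30a6, which works in the secretory pathway as a partner of the Slc30a5 protein, rose by 0.85 from 9.25 ± 0.14 to 10.10 ± 0.11 (adjusted p = 0.00243). Slc30a5 itself stood at 9.55 ± 0.18 and 9.25 ± 0.02 and did not pass (adjusted p = 0.106).

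Slc30a1, the zinc exporter of the plasma membrane, went the opposite way to Slc30a4, another gene of its family. It stood at 8.58, 8.50 and 8.74 after PBS and at 7.56, 8.04 and 7.81 after Con A, and fell by 0.81 (limma adjusted p = 0.00821). Slc39a13, a zinc carrier of the secretory pathway, fell by 1.00 from 10.56 ± 0.08 to 9.56 ± 0.24, and Slc39a7, which releases zinc from the endoplasmic reticulum, fell by 0.36. Slc41a3 fell by 0.54. The call of Slc39a7 (adjusted p = 0.0151) was lost without PBS replicate 1, PBS replicate 2, Con A replicate 2 or Con A replicate 3, at up to 0.0647.

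The other 18 metal carriers had differences from -0.68 to 0.28. In Slc39a14, a zinc and iron importer known for its induction in inflamed liver, the groups overlapped and replicate 3 of each was high. Slc39a14 stood at 7.15, 7.15 and 8.58 after PBS and at 7.22, 7.46 and 8.37 after Con A. Slc41a1, a magnesium carrier, had the same shape, at 7.47, 7.07 and 8.35 and at 6.92, 7.43 and 8.09. Slc39a10 was high in PBS replicate 3 alone, at 8.83 against 7.25 to 7.82 elsewhere, and its difference of -0.68 did not pass.

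Among 7 genes of zinc buffering and sensing, 0 rose and 1 fell, a share near the 12.1% that fell among the other genes with a mean of 7 or more. The gene was the ion channel gene Trpm7, which fell by 0.36, and the Trpm7 call (adjusted p = 0.0191) was kept in 1 of the fits that each left out 1 array, at up to 0.0791 without PBS replicate 1. The metallothionein gene Mt2 stood at 9.33, 9.54 and 11.96 after PBS and at 11.29, 12.13 and 12.40 after Con A. The PBS replicate 3 array lay inside the Con A range, and the difference of 1.67 (interval 0.11 to 3.23) did not pass (limma adjusted p = 0.175). Mt1 differed by 0.66 (adjusted p = 0.321) and their transcription factor gene Mtf1 by -0.07 (adjusted p = 0.732). Metallothioneins bind zinc in the cytosol.

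The promoters of Slc30a4 and Slc30a1, zinc carriers that moved in opposite directions, are shown with TGCNCNC on either strand in capitals, a looser string than the metal response element core, which has A or G where the first N stands. The sequences are RefSeq promoters of GRCm38.p6, from 250 bases before to 50 after the start, and 135 of the 171 carriers had one. Slc30a4 lies at chr2:122702614-122702913 (minus strand) and Slc30a1 at chr1:191906531-191906830 (plus strand).
Slc30a4: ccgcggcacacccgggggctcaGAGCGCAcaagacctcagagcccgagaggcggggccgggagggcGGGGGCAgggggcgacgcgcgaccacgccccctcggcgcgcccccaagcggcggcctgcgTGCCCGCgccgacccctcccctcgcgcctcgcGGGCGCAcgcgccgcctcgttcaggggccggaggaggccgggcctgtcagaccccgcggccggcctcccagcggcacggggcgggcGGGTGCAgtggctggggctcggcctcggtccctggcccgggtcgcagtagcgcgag
Slc30a1: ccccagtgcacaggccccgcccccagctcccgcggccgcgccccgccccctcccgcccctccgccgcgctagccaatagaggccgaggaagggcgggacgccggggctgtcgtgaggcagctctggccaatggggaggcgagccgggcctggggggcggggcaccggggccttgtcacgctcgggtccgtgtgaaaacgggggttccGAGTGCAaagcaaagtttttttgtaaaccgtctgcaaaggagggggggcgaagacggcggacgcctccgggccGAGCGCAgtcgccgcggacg
The looser string occurred 5 times in the first and 2 times in the second, and the stricter core (TGCACNC or TGCGCNC, counted after the values were seen) 3 and 2 times. The looser string was found in a promoter of 6 of the 9 matched carriers that rose, 15 of the 31 that fell and 65 of the 95 that did not pass, against 53.6% of all genes with a promoter. The stricter core was found for 2 of 9, 12 of 31 and 46 of 95, against 28.2% of all genes. A match is a string of letters and not a measured site.

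Nucleoside and nucleobase carriers held the other large rise. Of 7 expressed genes, 3 rose and 1 fell, with a median of 0.13. Among the other genes with a mean of 7 or more, 7.34% rose and 12.1% fell, so the 1 fall lay near the background. Slc28a3 (probe set 10409713), which concentrates purine and pyrimidine nucleosides in the cell with sodium, stood at 7.42, 7.69 and 7.71 after PBS and at 10.29, 9.59 and 9.92 after Con A. The lowest Con A array was 1.88 above the highest PBS array, and the rise was 2.32 ± 0.18 (SE) on the log2 scale (limma adjusted p = 0.000808). Slc43a3, a purine nucleobase carrier, rose 1.98-fold, from 9.40, 10.03 and 9.48 to 10.75, 10.60 and 10.51 (adjusted p = 0.01). Slc29a2, an equilibrative nucleoside carrier, rose by 0.49 (adjusted p = 0.0496). The Slc29a2 call was kept without Con A replicate 1 and lost without each other array, at up to 0.145, and with quantile normalization again or a variance trend (0.0551 and 0.0553).

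Slc29a3, the nucleoside exporter of lysosomes, was the gene of this class that fell. It stood at 9.61, 9.35 and 10.31 after PBS and at 8.63, 8.39 and 8.95 after Con A. The groups did not overlap, PBS replicate 3 was the highest array, and the fall was 2.14-fold (-1.10, 95% interval -1.68 to -0.52, limma adjusted p = 0.0292). The call was lost without PBS replicate 1, Con A replicate 1 or Con A replicate 2, at adjusted p = 0.0846, 0.083 and 0.119. The plasma membrane carriers Slc28a2 and Slc29a1 and the vesicular nucleotide carrier Slc17a9 did not pass, with differences of 0.13, -0.17 and -0.48.

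**Figure D3:**
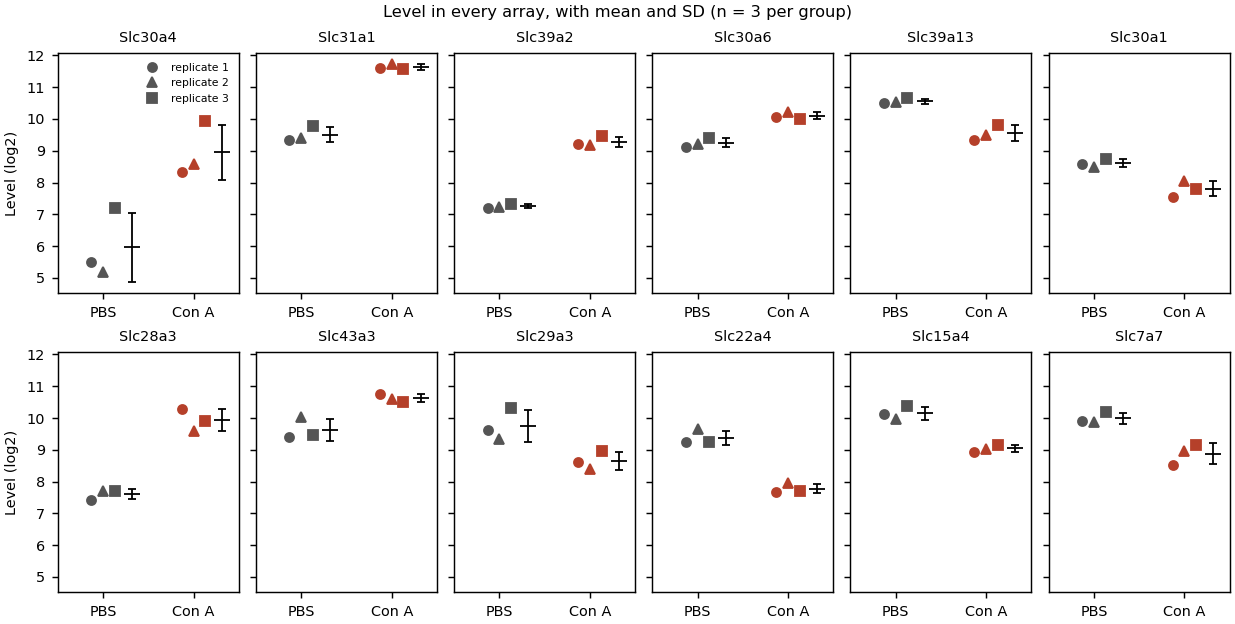
Level of 12 carriers in every array (vertical axis, log2), with PBS in grey, Con A in red, the replicate number as the marker shape and the group mean with SD beside the points (n = 3). Slc30a4 shows the widest spread within groups, and Slc31a1 and Slc39a2 the 2 tightest separations among the large rises.

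Carriers of amino acids and peptides held 7 of the falls. Of 22 expressed genes, 1 rose and 7 fell, with a median of -0.32. The background shares among the other genes with a mean of 7 or more were 7.34% higher and 12.1% lower. The lysosomal histidine and peptide carrier gene Slc15a4, which Toll-like receptor signalling in endosomes depends on, stood at 10.14, 9.96 and 10.37 after PBS and at 8.93, 9.04 and 9.16 after Con A. It fell 2.17-fold (-1.12 ± 0.12 SE, limma adjusted p = 0.00176), and every Con A array lay at least 0.80 below every PBS array. Its close relative Slc15a3 had a difference of the other sign, from 11.06 ± 0.18 to 11.69 ± 0.35, which did not pass (0.63, interval 0.21 to 1.05, adjusted p = 0.0675).

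Slc7a7, the light chain that exports cationic amino acids, fell by 1.11, from 9.91, 9.87 and 10.20 to 8.51, 8.97 and 9.16 (limma adjusted p = 0.00707). Slc43a2, a facilitator of large neutral amino acids, fell by 0.98, from 10.16, 9.86 and 10.05 to 8.88, 9.18 and 9.06 (adjusted p = 0.0022). Slc7a5, the exchanger of large neutral amino acids, was the gene that rose, by 0.68 from 9.40, 9.62 and 9.93 to 10.40, 10.03 and 10.55 (adjusted p = 0.0443). The Slc7a5 groups were 0.10 apart at the nearest arrays, and the call was kept without PBS replicate 3 or Con A replicate 2 and lost without each other array, at up to 0.147. Centring each array on its median moved it to 0.0571. Slc3a2, the heavy chain that both Slc7a5 and Slc7a7 need at the membrane, stood at 12.60 ± 0.16 and 12.60 ± 0.11, with an interval of the difference from -0.24 to 0.24.

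The lysosomal exporter gene of cationic amino acids, Slc66a1, fell by 0.58 with little spread, from 8.74 ± 0.04 to 8.16 ± 0.04 (adjusted p = 0.00252). The glutamine carrier gene Slc38a2, which cells induce when amino acids are short, fell by 0.53, from 12.60, 12.61 and 12.49 to 12.04, 12.06 and 12.01 (limma adjusted p = 0.00405). Slc36a1, a proton-coupled carrier of small amino acids in lysosomes, fell by 0.54 (adjusted p = 0.0369), and this call was lost whichever array was left out, at 0.0554 to 0.0941. Its neighbour Slc36a3 fell by 0.44 (adjusted p = 0.029), a call that was kept without PBS replicate 2 and lost without each other array, at up to 0.106. The 14 genes of the class that did not pass ranged from -0.42 to 0.71. The upper end was Slc6a9, a glycine importer, at 8.26 ± 0.12 and 8.97 ± 0.48 (adjusted p = 0.0845).

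Among 17 genes of the amino acid response, 2 rose and 2 fell. Over all genes 4.59% rose and 7.22% fell, and among the other genes with a mean of 7 or more 7.34% and 12.1%, so with so few genes the list's counts lay near the background. Phgdh, the entry enzyme of serine synthesis, rose by 0.89 and the stress gene Nupr1 by 0.79, while Sesn2 and Eif4ebp1 fell by 0.46 and 0.44. Leaving out 1 array at a time kept these calls in 5, 2, 1 and 2 of 6 fits, at up to 0.0558, 0.118 and 0.0825 for Phgdh, Sesn2 and Eif4ebp1 without PBS replicate 1 and 0.08 for Nupr1 without Con A replicate 2. The list median was 0.14, against 0.02 over all genes.

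The largest fall of any carrier was that of Slc22a4 (probe set 10385893), which takes up the antioxidant ergothioneine. It stood at 9.26, 9.64 and 9.26 after PBS and at 7.68, 7.96 and 7.71 after Con A. Every Con A array lay at least 1.30 below the PBS arrays, and the fall was 3.04-fold (-1.60 ± 0.13 SE, limma adjusted p = 0.000827). Slc22a5, the carnitine importer and a related gene with 1 protein-coding gene between them on chromosome 11, fell by 0.47, from 8.37 ± 0.17 to 7.90 ± 0.04 (adjusted p = 0.023). The Slc22a5 call was lost without PBS replicate 2 or any of the Con A arrays, at up to 0.0792. The urate and hexose carrier gene Slc2a9 rose by 0.56 (adjusted p = 0.0442). The Slc2a9 call was kept without PBS replicate 2 and lost without each other array, at up to 0.153, and with quantile normalization again, centring or a variance trend (0.0534, 0.0562 and 0.0502). The 5 other carriers of fatty acids, bile acids and organic ions ranged from -0.31 to 0.20.

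Most carriers of the Slc25 family move metabolites across the mitochondrial inner membrane, and the whole family is placed in the mitochondrial class here. Of 33 expressed genes, 9 fell and 0 rose, with a median of -0.20. Among the other genes with a mean of 7 or more, 12.1% fell and 7.34% rose. By substrate, both carriers of iron, Slc25a37 and Slc25a28, both carriers of pyrimidine nucleotides, Slc25a33 and Slc25a36, the folate or FAD carrier Slc25a32 and 2 of 7 amino acid carriers, Slc25a44 and Slc25a38, fell. The Slc25a38 call (adjusted p = 0.0254) was lost whichever array was left out, at 0.0529 to 0.0882, and the Slc25a44 call (0.0141) without PBS replicate 1 or Con A replicate 2, at 0.0619 and 0.0584. Slc25a45 and Slc25a43, which have no group of their own here, fell too. None passed among 4 carriers of adenine nucleotides, 3 of di- and tricarboxylates, 2 of coenzyme A, 2 of glutathione and the phosphate carrier, whose differences ranged from -0.26 to 0.34.

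Slc25a37, which imports iron for heme and iron-sulfur clusters, stood at 10.91, 10.84 and 10.86 after PBS and at 10.09, 10.19 and 10.27 after Con A. It fell 1.62-fold (-0.69 ± 0.08 SE, limma adjusted p = 0.00196), and its arrays differed within a group by less than 0.2. Slc25a28, its broadly expressed relative, fell by 0.46 (adjusted p = 0.0251), a call kept without PBS replicate 3 and lost without each other array, at up to 0.0989. Erythroid markers, whose cells also use Slc25a37, had array means of 6.55 to 6.64 after PBS and 6.56 to 6.71 after Con A. The erythrocyte anion exchanger gene Slc4a1 differed by 0.24 and did not pass (adjusted p = 0.123).

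Slc25a33 had the largest mitochondrial fall, 1.88-fold, from 8.30, 7.95 and 8.40 to 6.88, 7.61 and 7.43 (adjusted p = 0.0265). Con A replicate 1 was the lowest array, and the call was lost without PBS replicate 1 or Con A replicate 3, at 0.108 and 0.0646. Slc25a36 fell by 0.48 from 10.39 ± 0.12 to 9.90 ± 0.02 (adjusted p = 0.0105), and its other row moved the same way, by -0.39. Slc25a45 fell by 0.79, from 11.67, 11.67 and 11.50 to 10.98, 10.74 and 10.74 (limma adjusted p = 0.00266). Slc25a32 fell by 0.52, from 8.30 ± 0.05 to 7.78 ± 0.08, and the last of the 5 largest, Slc25a43, fell by 0.51 (adjusted p = 0.0345). The Slc25a43 call was kept without PBS replicate 3 or Con A replicate 3 and lost without each other array, at up to 0.128. The citrate carrier gene Slc25a1, which feeds lipid synthesis, lay at the upper end of the class with a difference of 0.34, its arrays at 9.30 to 9.59 after PBS and 9.57 to 9.86 after Con A (adjusted p = 0.109).

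**Figure D4:**
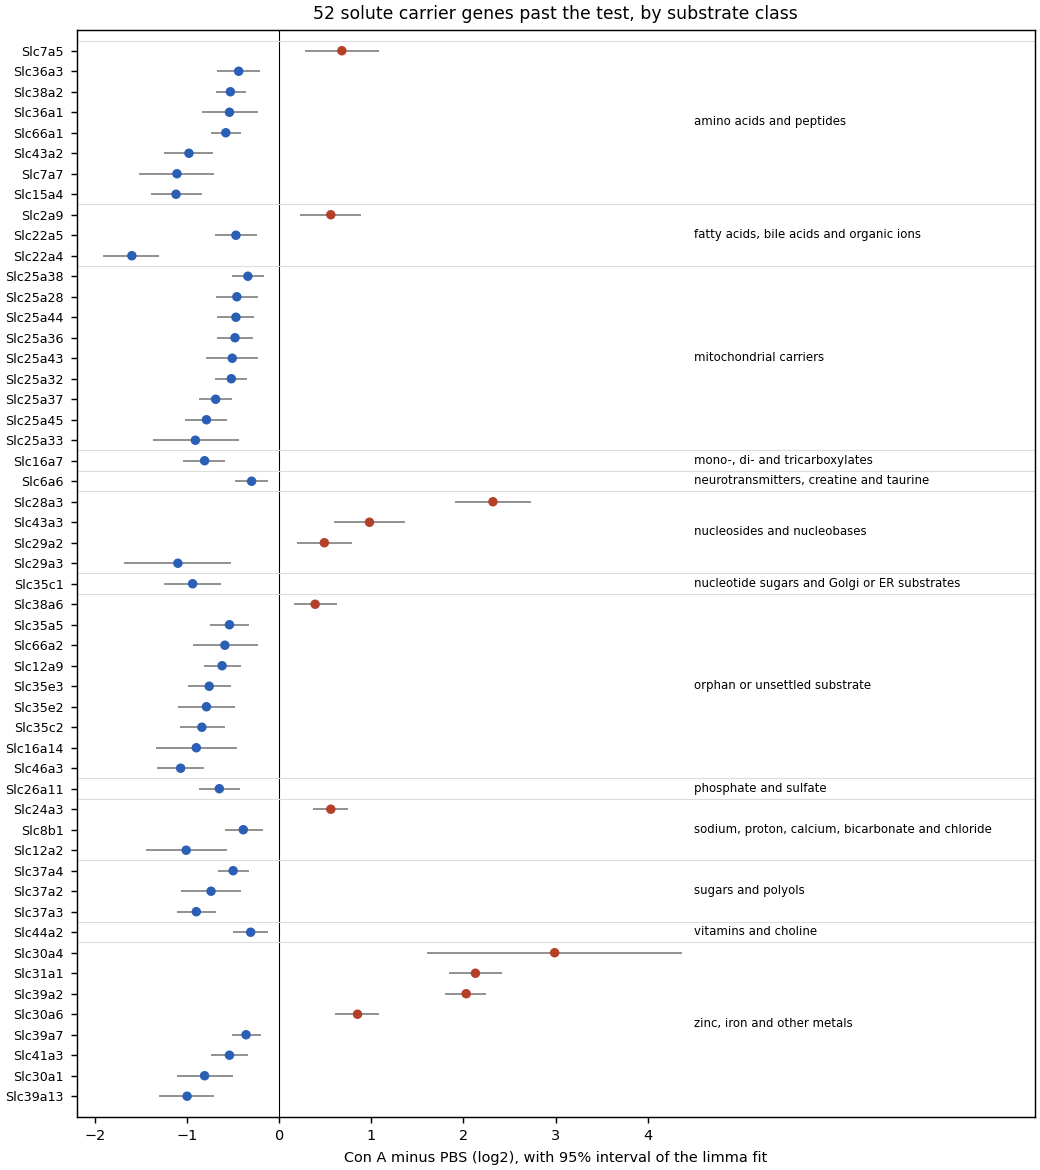
Difference Con A minus PBS (horizontal axis, log2) with its 95% interval for the 52 carriers past the test, grouped by substrate class. Rises reach 2.99 (Slc30a4, whose choice favoured a rise) and falls -1.60 (Slc22a4), and 41 of the 52 points lie left of 0. Among carriers with both group means at 7 or more the largest rise is 2.32.

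Carriers of sugars and polyols had 3 genes that fell and 0 that rose among 9. The share that fell among the other genes with a mean of 7 or more was 12.1%. All 3 sugar carriers that fell came from the Slc37 sugar phosphate exchanger family. Slc37a4, the glucose-6-phosphate carrier named above, fell 1.41-fold, from 8.72, 8.87 and 8.76 to 8.28, 8.30 and 8.28 (limma adjusted p = 0.00534). The Con A arrays were nearly equal. Slc37a3 fell by 0.90, from 9.86, 9.73 and 9.64 to 8.93, 8.73 and 8.87 (adjusted p = 0.0015). Slc37a2, which is found in macrophages, fell by 0.74 and lost its call without PBS replicate 1 or Con A replicate 2 (adjusted p = 0.0609 and 0.0657). Slc37a2 reached the level of 7 only through the PBS arrays, so a fall was built into its choice. The last member of the family, Slc37a1, differed by -0.21 (interval -0.65 to 0.22) and did not pass. The lysosomal hexose carrier gene Slc2a6 stood at 12.01, 11.66 and 12.34 after PBS and at 12.27, 12.69 and 12.53 after Con A, and its difference of 0.49 did not pass (adjusted p = 0.138).

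Ion exchangers had 1 gene that rose and 2 that fell among 13, with a median of 0.08. Over the other genes with a mean of 7 or more, 7.34% rose and 12.1% fell, so with so few genes these counts lay near the background. Slc12a2, the sodium, potassium and chloride cotransporter that sets cell volume, fell 2.02-fold, from 7.74, 7.27 and 7.81 to 6.26, 6.84 and 6.68 (adjusted p = 0.0141). Its Con A arrays lay below the array medians, and the call was lost without PBS replicate 1 (0.0701). Slc12a2 reached the level of 7 only through the PBS arrays, so a fall was built into its choice. Slc24a3, a sodium and calcium exchanger that also moves potassium, rose by 0.56, from 7.49, 7.51 and 7.32 to 7.99, 7.95 and 8.06 (limma adjusted p = 0.0055). The mitochondrial calcium exchanger gene Slc8b1 fell by 0.39 (adjusted p = 0.0289), a call kept without PBS replicate 3 and lost without each other array, at up to 0.11. The other 10 genes ranged from -0.50 to 0.24.

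Among 10 carriers of nucleotide sugars and other Golgi or endoplasmic reticulum substrates, 1 fell and 0 rose. That count lay near the background, since 12.1% of the other genes with a mean of 7 or more fell. Slc35c1 brings GDP-fucose into the Golgi, where it is used for the fucosylated ligands with which leukocytes bind selectins. It stood at 9.60, 9.69 and 9.43 after PBS and at 8.89, 8.41 and 8.60 after Con A, and fell 1.92-fold (limma adjusted p = 0.00509). Its relative Slc35c2, placed among the carriers without a settled substrate, fell by 0.84 from 10.73 ± 0.18 to 9.89 ± 0.07 (adjusted p = 0.00292). The 9 others of this class ranged from -0.44 to 0.19.

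The 4 remaining classes, with 16 expressed genes, each held 1 that fell. Since 12.1% of the other genes with a mean of 7 or more fell, 1 fall says little about so small a class. Slc16a7, a high-affinity monocarboxylate carrier, fell by 0.81, from 7.80, 7.69 and 7.49 to 6.84, 6.80 and 6.90 (limma adjusted p = 0.00243). Its Con A arrays lay below the array medians. It was the sole gene of its class that the rule kept at this level. Slc16a3 of the same class, which the rule left out, stood at 12.16 in both groups. Slc16a7 reached the level of 7 only through the PBS arrays, so a fall was built into its choice. Slc26a11, a sulfate and chloride carrier, fell by 0.65, from 8.22, 8.23 and 8.03 to 7.41, 7.63 and 7.50 (adjusted p = 0.00535). The phosphate importer gene Slc20a1 had a difference of the other sign, 0.47, and did not pass (interval 0.17 to 0.76, adjusted p = 0.0583). The taurine importer gene Slc6a6 and the choline carrier-like gene Slc44a2, which bears a neutrophil alloantigen in humans, fell by 0.30 and 0.31. These calls (adjusted p = 0.0449 and 0.0489) were lost whichever array was left out for Slc6a6 (up to 0.139) and without each array but PBS replicate 3 for Slc44a2 (up to 0.157).

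Of 27 carriers without a settled substrate, 8 fell and 1 rose, with a median of -0.18. The background shares among the other genes with a mean of 7 or more were 12.1% lower and 7.34% higher. Slc46a3, a protein of the lysosomal membrane, stood at 9.60, 9.45 and 9.64 after PBS and at 8.29, 8.58 and 8.61 after Con A, and fell 2.10-fold (limma adjusted p = 0.00152). Slc16a14 fell by 0.90 (adjusted p = 0.0217), a call kept without PBS replicate 3 or Con A replicate 1 and lost without each other array, at up to 0.094. Slc35e2 and Slc35e3 fell by 0.79 and 0.76 (adjusted p = 0.00948 and 0.00376), and the Slc35e2 call stood at 0.0502 without PBS replicate 1. Slc38a6 rose by 0.39, and its call (adjusted p = 0.0464) was lost whichever array was left out, at up to 0.133.

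A second motif, the E-box CACGTG, is shown in the promoters of Slc22a4, the gene with the largest fall, and Slc35a5, whose promoter holds it more than once. They were chosen after the values were seen. The E-box is bound by several factors of the helix-loop-helix type, and its matches may overlap those of TGCNCNC. Slc22a4 lies at chr11:54028055-54028354 and Slc35a5 at chr16:45158624-45158923, both on the minus strand, with the motif in capitals.
Slc22a4: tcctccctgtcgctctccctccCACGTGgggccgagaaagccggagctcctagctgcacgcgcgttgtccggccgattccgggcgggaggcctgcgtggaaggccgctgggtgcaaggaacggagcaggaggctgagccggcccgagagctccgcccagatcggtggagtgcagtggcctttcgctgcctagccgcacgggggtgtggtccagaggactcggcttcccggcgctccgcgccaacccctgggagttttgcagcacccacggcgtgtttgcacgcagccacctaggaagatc
Slc35a5: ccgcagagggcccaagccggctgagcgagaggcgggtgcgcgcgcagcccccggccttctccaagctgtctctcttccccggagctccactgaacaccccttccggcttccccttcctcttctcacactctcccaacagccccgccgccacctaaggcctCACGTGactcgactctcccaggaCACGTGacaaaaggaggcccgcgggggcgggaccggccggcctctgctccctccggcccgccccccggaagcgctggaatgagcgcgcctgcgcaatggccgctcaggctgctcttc
Slc35a5 fell by 0.54, from 11.07 ± 0.13 to 10.53 ± 0.08 (limma adjusted p = 0.00918). A promoter with the E-box was found for 9 of the 31 matched carriers that fell, 0 of the 9 that rose and 13 of the 95 that did not pass, against 8.09% of all genes with a promoter. TGATGNAA, the amino acid response element, was found for 1 that fell and 0 that rose, against 4.51% of all genes. TTCNNNGAA, a STAT site, was found for 2 and 0, against 9.55%. The NF-kB motif was found for 1 and 0, against 1.89%. These are descriptions of letters in a short window on both strands, and no match says nothing about the factor.

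Among 43 other transporters and partner genes, 6 fell and 0 rose, with a median of -0.03, where 7.22% of all genes and 12.1% of the other genes with a mean of 7 or more fell. The export pump gene Abcc3 fell by 1.40, the sterol exporter gene Abcg1 by 1.01, the proton channel gene Hvcn1, which supports the oxidative burst, by 1.00 and the phosphate exporter gene Xpr1 by 0.56. Abcc3 stood at 9.26, 8.84 and 8.84 after PBS and at 7.39, 7.74 and 7.60 after Con A. The Xpr1 call (adjusted p = 0.0401) was kept in 1 of the fits that left out an array, at up to 0.146 without Con A replicate 2.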

How the data were processed

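A kit for the whole transcriptome amplified the RNA before hybridisation to mouse Affymetrix gene arrays, as the labels record. The authors deposited log2 expression values per probe set, and the submitters' processing notes name RMA and Partek with no version or setting. RMA tends to understate differences of dim probe sets, and detection calls were not used here. The number of arrays, 3 per group, limits precision. The median of each array was between 7.05 and 7.08, and 0 pairs of arrays were identical. The platform annotation gave 1 symbol for 21789 of 35556 rows, several for 1621 and none for 12146.

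The fit used limma 3.58.1 (lmFit, eBayes, two-sided) in R 4.3.3 over 19938 genes. Python 3.11.15, pandas 2.3.3 and matplotlib 3.10.9 made tables and plots. The script was checked on simulated data first. Of changes of 0.5, 1 and 2 on the log2 scale, it recovered 17.4%, 95.8% and 99.6%. Of its calls 7.45%, 5.8% and 8.2% were false, above the nominal 5% of the 0.05 threshold. The simulation changed 200 genes per run, against 2355 genes called here, so these shares need not hold for the data. A gene that did not pass may still differ by 0.5, or by more where its arrays spread widely. Among carriers that did not pass, the interval of the difference ran from -0.97 to 1.08 for Slc39a14. For Slc41a1 it ran from -1.03 to 0.73. Substrate classes were assigned by family, with exceptions for single genes. In the 11 carriers with several rows, rows of a gene had the same sign. Named genes were up to 5 per class and direction past the threshold, the 10 brightest, those next to the level of 7 and those with group means on both sides of it. Other genes were named after their values were seen. Members, lists and classes were chosen with earlier results of these data known. Alternatives left out each array, added the replicate block, or changed the normalization, variance model, rows or level.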

Additional observations from a re-analysis of the deposited data

How the results depend on the processing

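Carriers were counted again under each alternative (13 per gene). The 52 carriers past the test kept their direction in all of them, 29 stayed past the threshold in all 6 fits with 1 array left out, and 17 in every alternative. The unmoderated test called 19 carriers (5 higher, 14 lower) and 671 of all genes, against 2355. By class it called 4 each of amino acids, mitochondrial carriers and metals and 2 of sugars. Organic ions, nucleosides, carboxylates, ion exchangers and carriers without a settled substrate had 1 each. Taurine, nucleotide sugars, sulfate and choline had 0 each. With 1 array left out, counts ran from 31 to 59 in all, 6 to 13 higher, 25 to 46 lower and 1140 to 2765 over all genes. By class they ran from 5 to 9 (amino acids), 1 to 3 (organic ions), 4 to 9 (mitochondrial), 0 to 0 (taurine), 2 to 4 (nucleosides), 5 to 11 (unsettled), 1 to 2 (sulfate), 1 to 3 (ions), 2 to 6 (sugars), 0 to 2 (choline) and 6 to 8 (metals). Carboxylates and nucleotide sugars stayed at 1 each. The labels do not say that a replicate number marks a shared animal, litter or day, so the numbers were not taken as pairs. Same-numbered arrays of the groups had deviations that correlated at 0.228, -0.17 and 0.555. Differently numbered arrays ran from -0.543 to 0.538, so these values do not settle whether the arrays were paired. With the replicate block, 55 carriers passed (11 higher, 44 lower), with 0 of taurine, 0 of choline and 3 of nucleosides. The block ended the calls of Slc29a2, Slc38a6, Slc44a2 and Slc6a6 (adjusted p = 0.0699, 0.0505, 0.0741 and 0.0624). Choline had 0 with arrays centred or quantile normalized again, and sulfate 2 when only genes with a mean of 7 or more were tested. A level of 6 or 8 kept 274 and 114 genes, of which 57 and 41 passed. The stricter metal response core was chosen after seeing the data. The cause of these changes was not tested.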
